A study of Rattus norvegicus with 16 samples.

Results

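The genes of respiratory complex I were followed in the left ventricle of rats bred for running capacity, with and without training. All 46 probe sets whose single gene symbol begins with Nduf were taken, and they stand for 42 genes of the 14217 that the array names with 1 symbol. Each gene was represented by its probe set of highest mean over the 16 arrays, and no filter on low values was applied, so all 42 genes were tested. They comprise 6 core subunits, 28 accessory subunits, 6 assembly factors and 2 genes that carry the Nduf name without being subunits of complex I.

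The 16 rats were females of about 7 months from generation 16 of 2 lines selected out of the N:NIH stock on treadmill capacity. The line bred for high capacity is called HCR and the line bred for low capacity LCR. Each gave 4 trained and 4 sedentary rats, with 1 Affymetrix rat expression array per heart. The groups, each of 4 rats, were HCR trained, HCR sedentary, LCR trained and LCR sedentary. Trained rats had run uphill intervals for 1.5 hours on 5 days a week over 8 weeks, while the sedentary rats of the same age did none. A line is the outcome of many generations of breeding, so a line difference holds every allele and habit in which the 2 lines differ.

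Complex I takes electrons from NADH, passes them along iron-sulphur clusters to ubiquinone, and pumps protons across the inner mitochondrial membrane. Its core subunits do this chemistry, and the core subunits encoded in mitochondrial DNA are not among the genes described here. Accessory subunits surround and stabilise the core, and assembly factors help to build the complex but leave the finished enzyme. The heart makes most of its ATP by oxidative phosphorylation and holds much of this complex, and defects in core, accessory or assembly genes can cause mitochondrial disease in humans, cardiomyopathy included.

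The starts of 4 member genes are shown first, chosen for a called result, a partner protein or a motif. RefSeq gave a window of 250 bases before to 50 bases after the start of 40 of the 42 genes on the rat build GRCr8. Of these, 4 windows are printed on the plus strand, with the motif in capitals. Ndufaf5 is the gene that passed the test, Ndufaf8 encodes its partner protein, and Ndufaf4 and Ndufa11 are the other members with the palindrome GCGCATGCGC, a binding site of nuclear respiratory factor 1. In the Ndufaf8 window the capitals mark CCGGAAG, a binding sequence of ETS factors such as the GA-binding protein.
Ndufaf5, chr3:147961362-147961661: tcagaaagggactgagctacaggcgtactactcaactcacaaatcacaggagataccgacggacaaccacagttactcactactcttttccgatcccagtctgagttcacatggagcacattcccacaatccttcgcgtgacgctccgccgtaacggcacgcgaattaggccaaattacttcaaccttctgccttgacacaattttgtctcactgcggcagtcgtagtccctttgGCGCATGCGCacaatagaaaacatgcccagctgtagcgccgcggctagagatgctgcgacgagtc
Ndufaf4, chr5:43401545-43401844: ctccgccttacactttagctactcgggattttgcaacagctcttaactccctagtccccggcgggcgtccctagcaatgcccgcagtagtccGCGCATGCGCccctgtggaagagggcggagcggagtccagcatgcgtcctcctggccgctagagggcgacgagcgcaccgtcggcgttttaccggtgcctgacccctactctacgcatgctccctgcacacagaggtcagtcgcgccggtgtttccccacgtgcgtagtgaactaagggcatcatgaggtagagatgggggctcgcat
Ndufa11, chr9:1637364-1637663: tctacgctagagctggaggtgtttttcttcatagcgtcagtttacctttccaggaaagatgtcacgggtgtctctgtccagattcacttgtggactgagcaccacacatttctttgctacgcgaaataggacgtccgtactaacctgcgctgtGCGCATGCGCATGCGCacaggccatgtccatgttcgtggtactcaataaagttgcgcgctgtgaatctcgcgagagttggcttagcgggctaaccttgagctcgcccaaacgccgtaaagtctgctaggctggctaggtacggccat
Ndufaf8, chr10:105879658-105879957: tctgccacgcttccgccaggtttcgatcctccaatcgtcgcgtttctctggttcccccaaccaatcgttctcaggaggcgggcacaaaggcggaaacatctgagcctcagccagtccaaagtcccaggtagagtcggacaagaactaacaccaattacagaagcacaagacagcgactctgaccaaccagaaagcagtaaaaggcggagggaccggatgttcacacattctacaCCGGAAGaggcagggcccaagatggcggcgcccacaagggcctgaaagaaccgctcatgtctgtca

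The palindrome reads the same on both strands. It begins 15 bases before the start of Ndufaf5 and 158 bases before that of Ndufaf4, and Ndufa11 holds 2 overlapping copies that begin 97 and 91 bases before its start. It was found in 3 of the 40 member windows (7.5%) and in 0.852% of all 33469 windows of the same length. CCGGAAG, or CTTCCGG on the other strand, stood in 9 member windows (22.5%) and in 8.75% of all windows. CCAAT or ATTGG stood in 13 member windows (32.5%) and in 37.5% of all windows, and TGACCTT or AAGGTCA, a sequence bound by nuclear receptors, in 3 (7.5%) and in 4.61%. These 4 spellings were kept out of 11 searched. The dropped ones follow with their member windows, and their share of all windows in brackets. GCATGCGC stood in 4 (2.47%), CATGCGC in 6 (3.77%), ACTTCCGG in 3 (3.81%) and CACTTCCG in 5 (3.35%). CGGAAG stood in 19 (16.6%), GGGGCGGGG in 2 (9.73%) and TCAAGGTCA in 0 (0.433%). A match of letters is a description and shows no binding.

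The deposited values are log expression values, taken as log2, so a difference of 1 is a doubling of the measured signal and the difference of Ndufaf5 given further on, -0.18, is a signal change of -11.6%. The arrays of 2 HCR sedentary rats stood apart. On the array of HCR sedentary rat 5, Xist, the RNA that coats the inactive X chromosome of female cells, read 3.76 to 4.94 over its probe sets, against 7.56 to 10.34 on the other 15 arrays, although every rat is labelled female. HCR sedentary rat 4 was the lowest of all 16 arrays for 19 of the 42 genes and below the gene's own mean for 41 of them. Its genes with a mean of 10 or more were also the lowest of any array, with a mean deviation of -0.081 from their own means, beside -0.078 for rat 5. The main line results are therefore also given without these rats. Cardiomyocyte markers, 11 of which were measured, averaged 13.62 to 13.75 on every array, near the top of the scale, which runs from 3.24 to 14.54. The 3′ minus 5′ signal of Gapdh, a measure of RNA integrity, ran from 0.77 to 0.91 in HCR and from 0.73 to 0.86 in LCR arrays. Over all 16 arrays the same measure ran from 1.06 to 1.26 for beta-actin. For hexokinase it ran from 1.68 in LCR trained rat 1 to 2.14 in LCR trained rat 4.

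Complex I transcripts varied less between rats of a group than genes in general, and more than those of the other respiratory complexes. The SD within a group had a median of 0.068 over the 42 genes, against 0.112 over all 14217 genes and 0.091 over the 1004 genes with a mean of 10 or more. It was 0.045 for complex II, 0.049 for complex III, 0.057 for complex IV and 0.047 for complex V, and these differences in spread were not tested. For core subunits the median SD was 0.071, for accessory subunits 0.064 and for assembly factors 0.113. Ndufab1, the mitochondrial acyl carrier protein, spanned 0.12 over all 16 arrays, and Ndufaf4 spanned 0.74. The sets also differ in level. The median of the gene means was 12.04 for the 42 genes, 6.68 for all genes and 10.89 for those with a mean of 10 or more. It was 12.48, 12.80, 13.18 and 13.16 for complexes II, III, IV and V, and 8.32 for assembly factors. The part of level in the spread was not tested. Levels of different probe sets also depend on their sequence, and single genes were not compared in level with each other.

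HCR and LCR hearts differed in 1 complex I gene of 42 when the line difference was averaged over training. Ndufaf5 was lower in HCR, with an adjusted p of 0.0261 (limma over 31042 probe sets, Benjamini-Hochberg). Over all genes 4.92% were called in this comparison and 3.38% were called and lower, so 1 of 42 is no more than the background. Of the 42 genes, 33 were lower and 9 higher in HCR, where 52.1% of all genes were lower. Their median difference was -0.036, against a median of -0.006 for all genes and -0.048 for genes with a mean of 10 or more, a level that 34 of the members reach. At an unadjusted p under 0.05 there were 12 lower genes and 1 higher, where 16.9% of all genes were lower and 11% higher. Of the 1004 genes with a mean of 10 or more, 736 were lower. At an unadjusted p under 0.05, 241 of these 1004 were lower and 32 higher. After quantile normalization of the summarised values 25 were lower and 17 higher, and after centring arrays on their medians 38 were lower and 4 higher. Without HCR sedentary rats 4 and 5 the split was 32 lower and 10 higher, with a median of -0.025. The 95% interval of the line difference lay within a 1.25-fold change either way for 41 of 42 genes and within 1.5-fold for all 42.

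**Figure D1:**
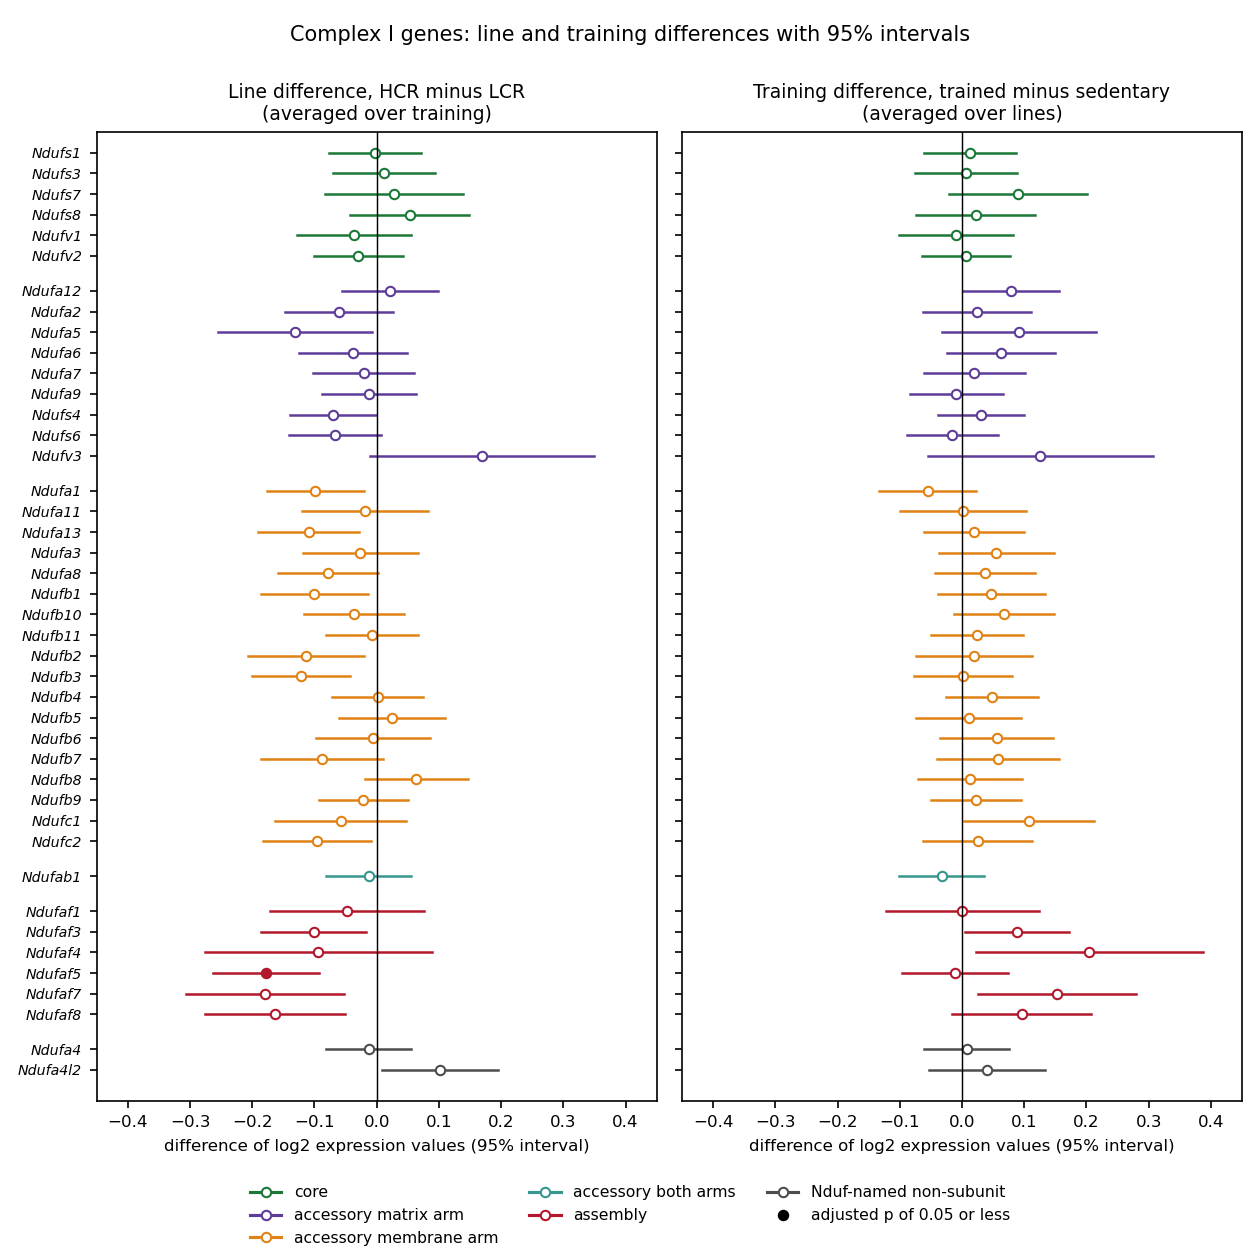
Difference of log2 values with its 95% interval for each of the 42 genes, by role, between lines (left, HCR minus LCR) and with training (right, trained minus sedentary). Core subunits lie between -0.04 and 0.05 in the line panel and between -0.01 and 0.09 in the training panel, all 6 assembly factors lie left of 0 in the line panel, and Ndufaf5 is the only filled point.

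In sedentary rats 0 of the 42 genes passed the limma test for the line difference, where 6.3% of all genes did. Unadjusted, 6 members had a p under 0.05, all lower in HCR, where 18.5% of all genes had one in that direction: Ndufaf7, Ndufaf8, Ndufb3, Ndufb2, Ndufaf3 and Ndufa13. The median of the 42 genes was -0.040, with 32 lower and 10 higher, against -0.018 for all genes and -0.073 for genes with a mean of 10 or more. Of the 1004 genes at that level, 781 were lower, 216 of them at an unadjusted p under 0.05. Without HCR sedentary rat 4 the split of the members was 26 lower and 16 higher with a median of -0.016. Without rat 5 it was 34 lower and 8 higher with a median of -0.054. After quantile normalization it was 24 lower and 18 higher. In trained rats 0 of 42 passed, where 0.0914% of all genes did, and 4 had an unadjusted p under 0.05, where 8.4% of all genes did. There 30 members were lower and 12 higher with a median of -0.036. Of all genes 51.4% were lower, as were 586 of the 1004 genes with a mean of 10 or more (median -0.020).

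The core subunits did not differ detectably between lines. Ndufv1 binds NADH and its flavin cofactor, Ndufv2 and Ndufs1 carry iron-sulphur clusters of the NADH-binding module, and Ndufs3, Ndufs7 and Ndufs8 belong to the module that reduces ubiquinone. Their averaged line differences ran from -0.04 to 0.05, with 3 genes lower and 3 higher and a median of 0.004. The widest bounds of their 95% intervals were -8.5% and 10.9%, so a line difference beyond these bounds is outside every interval. In all 7 comparisons the intervals of all 6 core genes lay within 1.25-fold.

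Ndufs8 had the largest line difference of the core genes. It read 11.79, 11.73, 11.85 and 11.97 in HCR trained rats and 11.76, 11.67, 11.83 and 11.90 in HCR sedentary rats. The LCR trained values were 11.72, 11.79, 11.78 and 11.74, and the LCR sedentary values 11.68, 11.83, 11.70 and 11.83. All 4 groups overlapped, and the averaged line difference was 0.05 ± 0.05 (SE; adjusted p = 0.493). Ndufv1 read 12.70, 12.47, 12.62 and 12.54 in HCR trained and 12.56, 12.50, 12.70 and 12.61 in HCR sedentary rats, beside 12.62, 12.70, 12.61 and 12.54 in LCR trained and 12.56, 12.71, 12.60 and 12.63 in LCR sedentary rats.

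These ranges overlapped almost entirely, and the difference of Ndufv1 was -0.04 (adjusted p = 0.633). Ndufv2 was tighter still, at 12.79, 12.77, 12.85 and 12.85 in HCR trained and 12.81, 12.74, 12.89 and 12.83 in HCR sedentary rats. It read 12.88, 12.81, 12.90 and 12.83 in LCR trained and 12.87, 12.83, 12.85 and 12.80 in LCR sedentary rats, with overlap of all groups and a difference of -0.03 (adjusted p = 0.614). Ndufs1, Ndufs3 and Ndufs7 differed by -0.003, 0.01 and 0.03.

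Of the 28 accessory subunits, 23 were lower and 5 higher in HCR in the averaged comparison, with a median of -0.037 and 0 called. Of all genes 52.1% were lower and 4.92% called. Of the 1004 genes with a mean of 10 or more, 736 were lower, with a median of -0.048. In the membrane arm, the part that pumps protons, 15 of 18 genes were lower (median -0.047), and in the matrix arm 7 of 9 were (median -0.038). In all 8 accessory genes had an unadjusted p under 0.05, all lower in HCR, and their differences ran from -0.13 for Ndufa5 to -0.07 for Ndufs4. At that p 16.9% of all genes were lower, and 241 of the 1004 genes with a mean of 10 or more.

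Ndufb3, a small subunit of the membrane arm, had the lowest p among the subunits. Its values were 12.88, 12.71, 12.76 and 12.71 in HCR trained and 12.77, 12.69, 12.71 and 12.79 in HCR sedentary rats. They were 12.97, 12.82, 12.85 and 12.83 in LCR trained and 12.88, 12.88, 12.90 and 12.88 in LCR sedentary rats. All 4 HCR sedentary values lay below all 4 LCR sedentary ones, and HCR trained rat 3 alone reached into the LCR range. The averaged line difference was -0.12 ± 0.04 (SE; adjusted p = 0.0693), and without HCR sedentary rats 4 and 5 it was -0.10 (adjusted p = 0.30).

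Ndufa13, a membrane arm subunit also studied as a cell death protein, read 12.26, 12.17, 12.28 and 12.11 in HCR trained and 12.22, 12.10, 12.17 and 12.18 in HCR sedentary rats. In LCR it read 12.26, 12.23, 12.37 and 12.33 in trained and 12.35, 12.25, 12.31 and 12.28 in sedentary rats. The trained groups overlapped and the sedentary groups did not. Its averaged difference was -0.11 (adjusted p = 0.10), and -0.09 (adjusted p = 0.355) without HCR sedentary rats 4 and 5.

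Ndufb2 of the same arm read 11.88, 11.66, 11.92 and 11.74 in HCR trained and 11.77, 11.69, 11.74 and 11.76 in HCR sedentary rats. Against these stood 11.84, 11.85, 11.91 and 11.90 in LCR trained and 11.77, 11.97, 11.89 and 11.96 in LCR sedentary rats. The HCR sedentary group was low and narrow, with LCR sedentary rat 2 next to its highest value, and the averaged difference was -0.11 (adjusted p = 0.130), or -0.10 (adjusted p = 0.393) without HCR sedentary rats 4 and 5.

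The X-linked Ndufa1 read 13.00, 12.88, 12.97 and 12.97 in HCR trained and 12.99, 13.08, 13.04 and 13.02 in HCR sedentary rats. LCR values were 13.17, 13.05, 13.11 and 12.98 in trained and 13.06, 13.07, 13.15 and 13.15 in sedentary rats. HCR trained rats were the lowest group, LCR trained rat 4 lay among them, and the averaged difference was -0.10 (adjusted p = 0.118), or -0.11 (adjusted p = 0.270) without HCR sedentary rats 4 and 5.

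Ndufb1 read 11.43, 11.52, 11.54 and 11.57 in HCR trained and 11.57, 11.41, 11.48 and 11.52 in HCR sedentary rats. It read 11.71, 11.55, 11.72 and 11.59 in LCR trained and 11.51, 11.53, 11.65 and 11.57 in LCR sedentary rats. LCR trained rats 1 and 3 were the highest arrays, the groups overlapped, and the averaged difference was -0.10 (adjusted p = 0.145), or -0.08 (adjusted p = 0.472) without HCR sedentary rats 4 and 5.

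In the matrix arm, which holds the redox chain, Ndufa5 and Ndufs4 had the largest negative differences. Ndufa5 read 10.25, 10.25, 9.99 and 10.03 in HCR trained and 10.09, 9.94, 9.98 and 10.06 in HCR sedentary rats, beside 10.39, 10.04, 10.27 and 10.25 in LCR trained and 10.25, 10.10, 10.27 and 10.06 in LCR sedentary rats. All groups overlapped, with a difference of -0.13 ± 0.06 (SE; adjusted p = 0.18), or -0.10 (adjusted p = 0.509) without HCR sedentary rats 4 and 5.

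Ndufs4, whose loss in humans and mice leaves the NADH-binding module loosely attached, read 8.57, 8.60, 8.59 and 8.65 in HCR trained and 8.60, 8.59, 8.64 and 8.57 in HCR sedentary rats. It read 8.76, 8.72, 8.70 and 8.61 in LCR trained and 8.64, 8.62, 8.68 and 8.64 in LCR sedentary rats. LCR trained rats 1, 2 and 3 and LCR sedentary rat 5 lay above every HCR array. The difference was -0.07 (adjusted p = 0.203), or -0.08 (adjusted p = 0.378) without HCR sedentary rats 4 and 5.

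Ndufab1, the acyl carrier protein found in both arms, read nearly the same in every group. It read 12.74, 12.77, 12.74 and 12.82 in HCR trained and 12.73, 12.73, 12.81 and 12.83 in HCR sedentary rats, beside 12.81, 12.75, 12.75 and 12.73 in LCR trained and 12.78, 12.80, 12.83 and 12.85 in LCR sedentary rats. All groups overlapped and the difference was -0.01 (adjusted p = 0.843). The other 18 accessory genes apart from Ndufv3 and Ndufc1 had averaged line differences from -0.10 for Ndufc2 to 0.06 for Ndufb8.

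In sedentary rats 5 members did not overlap between lines, all lower in HCR (Ndufb3, Ndufa13, Ndufs6, Ndufaf5 and Ndufaf8), where 11.4% of all genes did so.

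Ndufv3 lay the other way. This accessory subunit of the NADH-binding module read 12.24, 12.35, 12.06 and 12.42 in HCR trained and 12.26, 12.09, 12.12 and 12.11 in HCR sedentary rats. In LCR trained rats it read 12.40, 11.89, 12.33 and 11.79, and in LCR sedentary rats 11.90, 11.91, 12.17 and 11.91. LCR trained rats split into a high and a low pair, and the lines overlapped. The averaged difference was 0.17 ± 0.09 (SE; adjusted p = 0.235), and a second probe set of the gene gave 0.24 (adjusted p = 0.199). Without HCR sedentary rats 4 and 5 the difference was 0.19 (adjusted p = 0.413). Its 95% interval, -0.01 to 0.35, was the only one of the 42 to pass the 1.25-fold limit in the averaged line comparison.

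All 6 assembly factors read lower in HCR, in sedentary rats (median -0.125), in trained rats (median -0.105) and averaged (median -0.132). Ndufaf2 and Ndufaf6 are not among the 42 genes, so these 6 are not the whole Ndufaf class. The sedentary and the trained comparison share no array. Of all genes, 53.6% were lower in HCR in sedentary rats and 51.4% in trained rats. All 6 assembly factors stand at or above the median level of the array, as 9488 genes do. Of those 9488 genes, 6542 were lower in sedentary rats, 5172 in trained rats and 6168 averaged. The medians of those genes were -0.082 in sedentary rats, -0.011 in trained rats and -0.046 averaged. Of the 6, 1 passed the test in the averaged comparison and 0 in the other 2. Averaged, all 6 stayed lower after quantile normalization (median -0.085), after centring (median -0.167) and without HCR sedentary rats 4 and 5 (median -0.111). In sedentary rats alone, Ndufaf1 or Ndufaf4 changed sign under some of these settings: 1 was higher after quantile normalization, 2 without rat 4, and 1 without rat 5 or without both.

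Ndufaf5 is a mitochondrial protein of the methyltransferase fold that, in human cells, hydroxylates an arginine of the core subunit Ndufs7 early in assembly. Its values were 7.12, 6.88, 7.05 and 7.05 in HCR trained and 7.09, 7.05, 7.11 and 7.14 in HCR sedentary rats. They were 7.25, 7.21, 7.28 and 7.31 in LCR trained and 7.16, 7.24, 7.15 and 7.30 in LCR sedentary rats. Every one of the 8 HCR arrays lay below every one of the 8 LCR arrays, which held for 0.302% of all genes in this direction. Within trained rats alone Ndufaf5 was the one member without overlap, where 1.81% of all genes had no overlap and were lower in HCR.

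Over 8 rats each, Ndufaf5 averaged 7.06 in HCR and 7.24 in LCR, a difference of -0.18 ± 0.04 (SE; 95% interval -0.26 to -0.09; adjusted p = 0.0261), or -11.6% in linear signal. In trained rats the difference was -0.24 ± 0.06 (SE; adjusted p = 0.189) and in sedentary rats -0.11 (adjusted p = 0.200), so neither passed alone. The averaged call stood without HCR sedentary rat 5 (adjusted p = 0.0497) and was lost without HCR sedentary rat 4 (0.0584), LCR sedentary rat 6 (0.0562), LCR trained rat 3 (0.0524) or LCR trained rat 4 (0.0528). It was also lost without HCR sedentary rats 4 and 5 together (-0.17, adjusted p = 0.143) and after quantile normalization (-0.13, adjusted p = 0.0788), and it was kept in 18 of 24 alternatives. In RNA of a whole ventricle piece, fewer cells of a type and less RNA per cell cannot be told apart.

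Ndufaf8 is a small protein that, in human cells, binds and stabilises Ndufaf5. It read 10.16, 9.95, 9.93 and 9.78 in HCR trained and 9.90, 9.68, 9.80 and 9.84 in HCR sedentary rats. It read 10.20, 9.93, 10.07 and 10.06 in LCR trained and 10.03, 9.99, 10.05 and 10.02 in LCR sedentary rats. The sedentary groups did not overlap and the trained groups did. The line difference was -0.22 ± 0.08 (SE; adjusted p = 0.0873) in sedentary rats and -0.16 (adjusted p = 0.0827) averaged. Without HCR sedentary rats 4 and 5 these were -0.15 (adjusted p = 0.521) and -0.13 (adjusted p = 0.330).

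Ndufaf7 is a mitochondrial arginine methyltransferase that complex I assembly needs in human cells. It read 6.97, 7.08, 7.04 and 7.06 in HCR trained rats, against 6.82, 6.76, 6.82 and 6.82 in HCR sedentary rats, so these groups did not overlap. LCR trained rats read 7.12, 7.03, 7.04 and 7.37, and LCR sedentary rats 7.04, 7.22, 6.82 and 7.18. The HCR sedentary group was the lowest of the 4, and LCR sedentary rat 5 fell among its values. The line difference in sedentary rats was -0.26 ± 0.08 (SE; adjusted p = 0.0746), the lowest adjusted p of any member there, and -0.24 (adjusted p = 0.416) without HCR sedentary rats 4 and 5. A second, separate probe set of Ndufaf7 gave -0.05 (adjusted p = 0.786), so the 2 probe sets disagree in size.

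Ndufaf3 and Ndufaf4 bind the ubiquinone module while it forms. Ndufaf3 read 10.52, 10.40, 10.58 and 10.54 in HCR trained and 10.38, 10.33, 10.40 and 10.44 in HCR sedentary rats. In LCR it read 10.55, 10.53, 10.63 and 10.60 in trained and 10.43, 10.56, 10.48 and 10.62 in sedentary rats. HCR sedentary rats were the lowest group, LCR sedentary rat 2 lay among them, and the averaged difference was -0.10 (adjusted p = 0.134), or -0.09 (adjusted p = 0.398) without HCR sedentary rats 4 and 5. Ndufaf4 differed by -0.09 (adjusted p = 0.522).

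Ndufaf1 belongs to the complex that builds the membrane arm. It read 5.95, 6.22, 6.07 and 6.23 in HCR trained and 6.13, 6.05, 6.25 and 6.18 in HCR sedentary rats, beside 6.32, 6.20, 6.11 and 6.17 in LCR trained and 6.29, 6.30, 6.01 and 6.05 in LCR sedentary rats. The groups overlapped throughout, with a difference of -0.05 (adjusted p = 0.639).

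The mean deviation of the 6 assembly genes from their own 16-array means was below 0 on 7 of 8 HCR arrays (-0.18 to 0.01) and above 0 on 7 of 8 LCR arrays (-0.04 to 0.16). Over the 1004 genes with a mean of 10 or more the same measure was below 0 on 6 of 8 HCR arrays (-0.081 to 0.032) and above 0 on all 8 LCR arrays (0.0064 to 0.042), and its part in the assembly result was not tested.

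**Figure D2:**
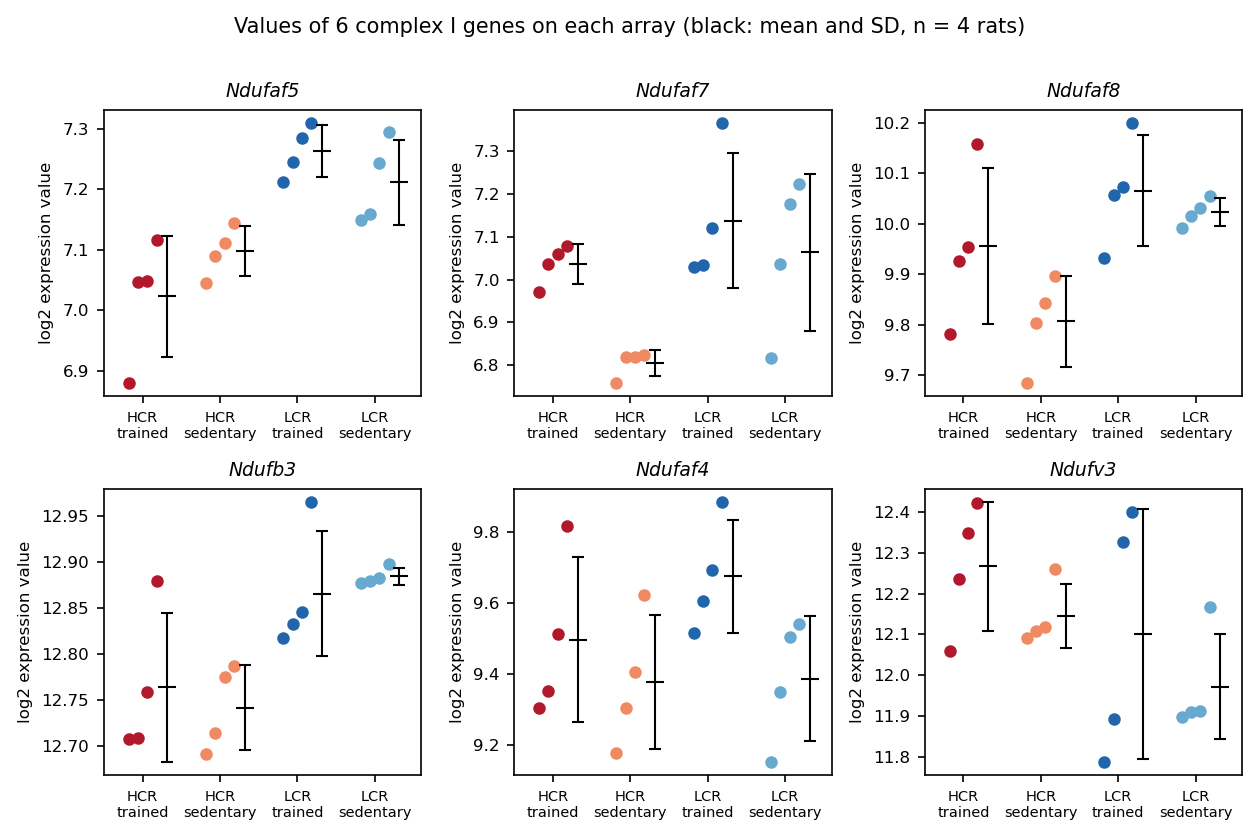
Log2 expression values of Ndufaf5, Ndufaf7, Ndufaf8, Ndufb3, Ndufaf4 and Ndufv3 on each array, by group, with mean and SD of 4 rats in black and a separate vertical scale for each gene. All 8 HCR points of Ndufaf5 lie below all 8 LCR points, and HCR sedentary rats are the lowest group for Ndufaf7 and Ndufaf8.

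**Figure D3:**
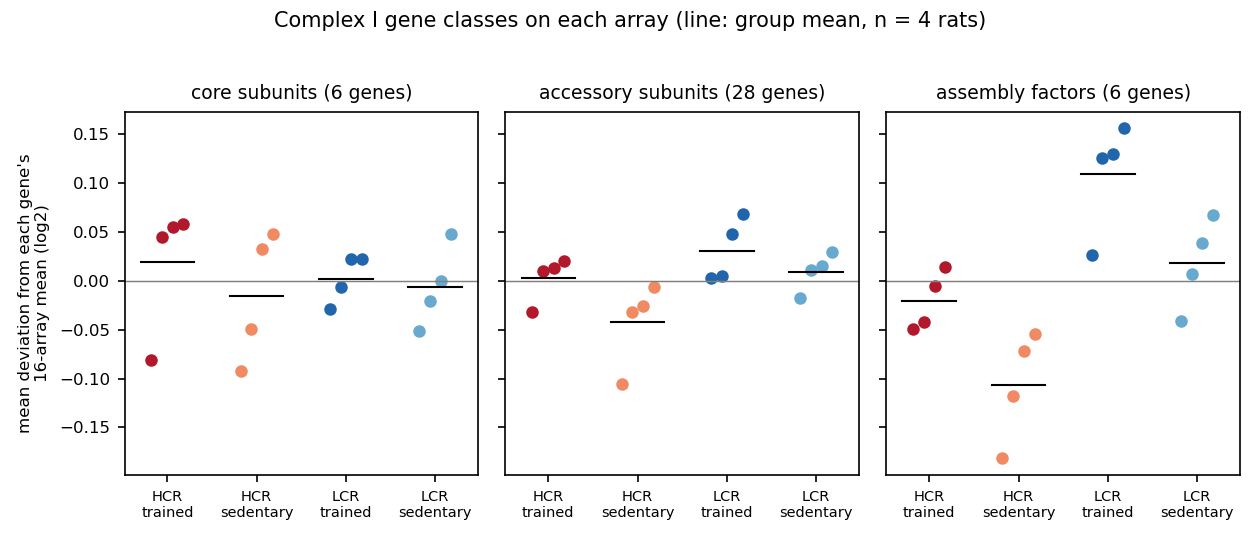
Mean deviation of the core, accessory and assembly genes from their own 16-array means (log2) on each array, by group, with the group mean as a line. Core genes scatter around 0 in all groups, while the assembly genes lie between -0.18 and 0.01 on HCR arrays and between -0.04 and 0.16 on LCR arrays.

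Markers of some other heart cells leaned with the line too. Of all genes 6.3% were called in sedentary rats and 4.92% averaged over training. In sedentary rats 7 of 8 fibroblast markers were lower in HCR and 1 was called lower, with a median of -0.31. Their mean level was 9.18 to 9.39 in HCR sedentary and 9.38 to 9.62 in LCR sedentary arrays. In trained rats 6 of the 8 were lower (median -0.023), and averaged 7 were lower (median -0.182), with 0 called in either. All 6 smooth muscle and pericyte markers were higher in HCR averaged over training (1 called), with mean levels of 7.42 to 7.76 in HCR and 7.30 to 7.70 in LCR arrays. All 3 nerve and Schwann cell markers were higher in HCR (1 called), at 5.66 to 5.93 in HCR and 5.52 to 5.77 in LCR arrays. Averaged over training, 1 lymphocyte marker was called higher and 1 lower, 1 atrial and 1 skeletal muscle marker were called higher, and 0 markers of endothelial cells, macrophages, adipocytes and red cells were called. Of the cardiomyocyte markers 0 were called in any comparison. Values on this scale have no 0, and the lowest marker mean was 4.20, for Myh4 of skeletal muscle. The part of these cells in the complex I differences was not tested.

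Training called no complex I gene in either line. In HCR rats 0 of 42 genes passed the limma test, where 0% of all genes did, and 3 had an unadjusted p under 0.05, all higher with training: Ndufaf7, Ndufc1 and Ndufaf3. Of all genes 8% had such a p and were higher. In LCR rats 0 of 42 passed, again with 0% of all genes, and Ndufaf4 alone had an unadjusted p under 0.05, higher in trained rats as in 2.22% of all genes. Averaged over lines 0 of 42 passed, where 0.00703% of all genes did, and 5 had an unadjusted p under 0.05, all higher, as 5.64% of all genes did. Of the 1004 genes with a mean of 10 or more, 94 had such a p and were higher.

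The training differences were small and leaned upward. Averaged over lines, 36 of 42 genes were higher and 6 lower in trained rats, where 48.1% of all genes were higher. Their median was 0.024, against -0.004 for all genes and 0.018 for genes with a mean of 10 or more. Of the 1004 genes at that level, 624 were higher. In HCR 33 members were higher and 9 lower, where 51.9% of all genes and 727 of those 1004 were higher. The median of the members was 0.042 there, beside 0.044 for genes with a mean of 10 or more. In LCR 28 members were higher and 14 lower, where 48% of all genes and 487 of those 1004 were higher. The median of the members was 0.024 there, beside -0.002. After quantile normalization the averaged split was 31 higher and 11 lower. Without HCR sedentary rats 4 and 5 it was 33 higher and 9 lower, and the HCR median was 0.018. For 41 of 42 genes the averaged 95% interval lay within a 1.25-fold change, and for all 42 within 1.5-fold.

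Markers of other cells leaned with training too, with 0 called in the averaged comparison. All 7 macrophage markers were higher in trained rats (median 0.130), with mean levels of 7.32 to 7.42 in HCR trained and 6.98 to 7.52 in HCR sedentary arrays, and of 7.21 to 7.83 in LCR trained and 7.17 to 7.55 in LCR sedentary arrays. Of 6 smooth muscle and pericyte markers 5 were higher (median 0.131), at 7.62 to 7.76 in HCR trained and 7.42 to 7.69 in HCR sedentary arrays, and at 7.38 to 7.70 in LCR trained and 7.30 to 7.59 in LCR sedentary arrays. All 4 atrial markers were lower (median -0.467), at 7.44 to 8.29 in HCR trained and 7.79 to 8.92 in HCR sedentary arrays, and at 7.22 to 8.37 in LCR trained and 7.84 to 8.38 in LCR sedentary arrays. All 3 red cell markers were higher (median 0.228). The ranges given overlapped within each line, and their part in the complex I differences was not tested.

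Ndufaf4 had the largest training difference. LCR trained rats read 9.61, 9.51, 9.89 and 9.69, against 9.54, 9.35, 9.50 and 9.15 in LCR sedentary rats. HCR trained rats read 9.51, 9.82, 9.35 and 9.30, against 9.62, 9.30, 9.18 and 9.41 in HCR sedentary rats. Both pairs of groups overlapped. The training difference was 0.29 ± 0.12 in LCR (SE; adjusted p = 0.835) and 0.20 ± 0.09 averaged (SE; adjusted p = 0.501). For Ndufaf7 the HCR training difference was 0.23 ± 0.08 (SE; adjusted p = 0.274), and its groups did not overlap, as for 4.51% of all genes in this direction. A second probe set of Ndufaf7 ran the other way there, with -0.11 (adjusted p = 0.662).

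Ndufc1, a membrane arm subunit, read 12.43, 12.52, 12.40 and 12.38 in HCR trained rats, against 12.40, 12.13, 12.28 and 12.30 in HCR sedentary rats. LCR trained rats read 12.32, 12.37, 12.49 and 12.58, against 12.47, 12.40, 12.27 and 12.38 in LCR sedentary rats. HCR sedentary rat 4 was the lowest of the 16 arrays, both pairs of groups overlapped, and the HCR training difference was 0.15 (adjusted p = 0.345). The core genes had a median training difference of 0.010 averaged over lines. The largest was that of Ndufs7, which averaged 12.70 in trained and 12.60 in sedentary rats, a difference of 0.09 ± 0.05 (SE; adjusted p = 0.614), and the widest bounds of their intervals were -6.8% and 15%.

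The response to training was not shown to differ between the lines. In the line by training interaction 0 of 42 genes passed, where 0% of all genes did, and 0 had an unadjusted p under 0.05, where 10.7% of all genes did. The 2 lowest p values belonged to Ndufa4l2 (0.14 ± 0.09, SE; adjusted p = 0.586) and Ndufaf5 (-0.13 ± 0.08, SE; adjusted p = 0.591). The intervals were wider here, and 36 of 42 lay within a 1.25-fold and all 42 within a 1.5-fold difference in response. Of the members 27 had a positive and 15 a negative interaction, where 52.9% of all genes were positive. Of the 1004 genes with a mean of 10 or more, 709 were positive. After quantile normalization the split of the members was 21 and 21, and after centring it was 36 and 6.

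Both Nduf-named genes that are not complex I subunits were read as well. Ndufa4 encodes a subunit of complex IV. It read 13.12, 13.12, 13.14 and 13.20 in HCR trained and 13.15, 13.15, 13.13 and 13.19 in HCR sedentary rats, beside 13.23, 13.11, 13.21 and 13.16 in LCR trained and 13.14, 13.11, 13.17 and 13.18 in LCR sedentary rats. All groups overlapped, and the averaged line difference was -0.01 (adjusted p = 0.830). Ndufa4l2, which hypoxia induces in cultured cells, read 7.27, 7.15, 7.24 and 7.12 in HCR trained rats, against 7.06, 6.98, 6.88 and 7.17 in LCR trained rats, and these groups overlapped. In sedentary rats it averaged 7.08 ± 0.06 in HCR and 7.05 ± 0.05 in LCR (SD, n = 4 each). The line difference in trained rats was 0.17 ± 0.06 (SE; adjusted p = 0.519).

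A second probe set was present for 4 members, and 0 of these were called by limma in any comparison. The second probe set of Ndufa9, an accessory subunit that binds NADPH, differed by -0.45 in sedentary rats (adjusted p = 0.0720) and by -0.28 averaged (adjusted p = 0.115), while the brighter one gave -0.01 averaged. The second probe set of Ndufa7 differed by -0.15 averaged (adjusted p = 0.159). What distinguishes the probe sets of a gene was not examined.

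Other assembly factors of complex I did not share one direction. Of 11 measured, 6 were lower and 5 higher in HCR averaged over training (median -0.032), and 8 were lower and 3 higher in sedentary rats (median -0.090). Acad9, an assembly factor related to the acyl-CoA dehydrogenases, was higher in HCR, 1 call of 11 where 4.92% of all genes were called. Over 8 rats each its lowest, median and highest values were 8.79, 8.88 and 9.14 in HCR and 8.48, 8.63 and 8.86 in LCR. The lines overlapped, and the averaged difference was 0.26 ± 0.06 (SE; adjusted p = 0.0319), called in 16 of 24 alternatives and not without HCR sedentary rats 4 and 5 (0.29, adjusted p = 0.106).

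Aifm1, the flavoprotein that helps to import and assemble complex I subunits, was lower in HCR sedentary rats. It read 10.12, 10.00, 10.04 and 10.05 there and 10.22, 10.29, 10.32 and 10.22 in LCR sedentary rats. These groups did not overlap, and the difference was -0.21 ± 0.05 (SE; adjusted p = 0.0422), called in 17 of 25 alternatives. It was 1 call of 11 in sedentary rats, where 6.3% of all genes were called. Of the 11, 4 did not overlap and were lower in HCR, and 1 did not overlap and was higher. Of all genes, 11.4% and 8.86% did so. Without HCR sedentary rats 4 and 5 it was -0.18 (adjusted p = 0.371).

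No gene of the other respiratory complexes was called. Of 4 genes of complex II, 8 of complex III, 13 of complex IV and 14 of complex V, 0 passed the limma test in any of the 7 comparisons. In that order their median line differences averaged over training were -0.018, 0.004, -0.013 and -0.030. There 0 of complex II, 1 of complex III, 1 of complex IV and 4 of complex V had an unadjusted p under 0.05, where 27.9% of all genes did, so these counts lie near or below the background. In sedentary rats those medians were -0.029, -0.017, -0.016 and -0.029. Of 18 genes that supply NADH or handle NAD, 1 was called in sedentary rats, where 6.3% of all genes were, and 0 averaged. Slc25a12, the aspartate and glutamate carrier of the malate-aspartate shuttle, read 10.13, 10.18, 10.10 and 10.26 in HCR sedentary and 10.29, 10.47, 10.38 and 10.47 in LCR sedentary rats, without overlap. Of all genes 11.4% did not overlap and were lower in HCR there. The difference of Slc25a12 was -0.23 ± 0.06 (SE; adjusted p = 0.0372), called in 16 of 25 alternatives. The call was lost without HCR sedentary rat 3 (adjusted p = 0.0515), rat 4 (0.0872), rat 5 (0.112) or rats 4 and 5 together (-0.21, adjusted p = 0.342). It was also lost without LCR sedentary rat 3 (0.0759), rat 5 (0.0697) or rat 6 (0.108), and after quantile normalization (-0.13, adjusted p = 0.187). In trained rats the difference of Slc25a12 was -0.01 (adjusted p = 0.994).

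Among 14 regulators of mitochondrial genes, 11 were lower and 3 higher in HCR in sedentary rats, and 10 were lower and 4 higher averaged. The limma test called 2 of them, Tfb2m and Tfam, both lower in each comparison, where 6.3% of all genes were called in sedentary rats and 4.92% averaged. Tfb2m starts transcription of mitochondrial DNA together with Tfam, which also packages that DNA. Tfb2m read 8.84, 8.51, 8.97 and 9.08 in HCR sedentary and 9.25, 9.40, 9.33 and 9.32 in LCR sedentary rats. Over 8 rats its lowest, median and highest values were 8.51, 9.05 and 9.31 in HCR and 9.25, 9.36 and 9.42 in LCR. The sedentary groups did not overlap, as for 11.4% of all genes in this direction, and 1 HCR trained rat reached into the LCR range.

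The difference of Tfb2m was -0.48 ± 0.10 in sedentary rats (SE; adjusted p = 0.0233) and -0.36 ± 0.07 averaged (SE; adjusted p = 0.0128). The averaged call stood in all 24 alternatives tried, with -0.30 (adjusted p = 0.0407) without HCR sedentary rats 4 and 5, and the sedentary call in 20 of 25. Tfam averaged 8.94 ± 0.10 in HCR trained, 8.85 ± 0.11 in HCR sedentary, 9.10 ± 0.12 in LCR trained and 9.12 ± 0.03 in LCR sedentary rats (SD, n = 4 each). Its averaged difference was -0.22 ± 0.05 (SE; adjusted p = 0.0258), called in 16 of 24 alternatives and lost without HCR sedentary rats 4 and 5 (-0.17, adjusted p = 0.171). These lists are described by counts and medians, and no list was tested as a whole.

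**Figure D4:**
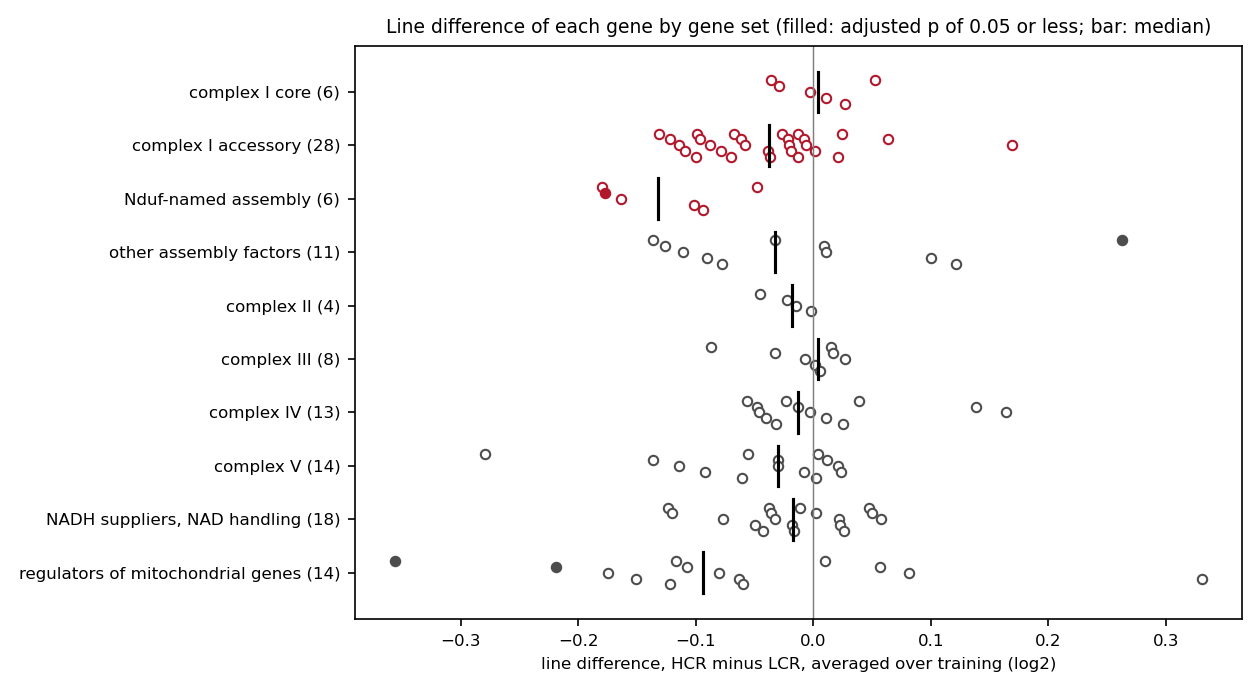
Line difference (HCR minus LCR, averaged over training, log2) of every gene in each list, with the number of genes in brackets, filled points at an adjusted p of 0.05 or less, and the median as a bar. The Nduf-named assembly factors have a median of -0.132 and the regulators of mitochondrial genes one of -0.094, while the medians of complexes II to V lie between -0.030 and 0.004.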

How the data were processed

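Left ventricle RNA of 16 rats was measured on 16 Affymetrix arrays, 4 rats in each of 4 groups, and groups were taken from the sample titles. The deposited values are log2 expression values that the authors computed by RMA (background correction, quantile normalization, summary per probe set), as the submitters' processing notes name it; the base of the logarithm is not stated and was taken as 2 from the range of 3.24 to 14.54. RMA is known to compress fold changes. Of 31099 probe sets, 57 controls were left out. Gene symbols came from the platform annotation: 20826 probe sets have 1 symbol, 436 several and 9780 none. Of the several-symbol probe sets, 2 carry an Nduf name and were not used.

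A model of 4 group means was fitted to 31042 probe sets on all 16 arrays (limma 3.58.1 under R 4.3.3, moderated by eBayes, 12 residual degrees of freedom), and each of 7 comparisons was adjusted by Benjamini-Hochberg and called at 0.05, two-sided. Every adjusted p is from this fit or a named alternative of it. Each p measures the spread between single rats. Values per array are given for members called, the 2 of lowest p in each comparison, and up to 3 others per role with the largest averaged line difference; called genes of the comparison lists are named, at most 4 a list. The members and lists were chosen with earlier results of these data known. Same-numbered rats showed no clear correlation (median 0.035), and the numbers were not used as pairs in the main fit. Promoter windows were matched by gene identifier to RefSeq. Alternatives were quantile normalization, median centring, a filter on dim probe sets, 1 probe set per gene, an intensity trend, array weights, the replicate number as a block, only the groups compared, and leaving out each rat. Leaving out HCR sedentary rats 4 and 5 together was chosen after seeing the data.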

Additional observations from a re-analysis of the deposited data

Results flagged for a closer look

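Among 96 groups of 4 arrays examined, 4 held a value far from the other 3 relative to the range of the group, where chance gives about 1 in 20. The mean deviation of the 6 core genes was -0.081 in HCR trained rat 4, against 0.044 to 0.058 in the other HCR trained rats. Ndufaf7 read 6.76 in HCR sedentary rat 4, just below 6.82 in each of the other HCR sedentary rats. Ndufv3 read 12.26 in HCR sedentary rat 3, against 12.09 to 12.12 in the others of its group. Ndufv3 also read 12.17 in LCR sedentary rat 5, against 11.90 to 11.91 in the others.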

How the results depend on the processing

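Of the 42 complex I genes, the number called between lines in sedentary rats was 0. It was 3 after centring arrays on their medians (Ndufb3, Ndufaf7 and Ndufaf8), 2 with array weights (Ndufaf7 and Ndufaf8), and 0 to 1 when each rat was left out in turn, the 1 being Ndufaf7 without LCR sedentary rat 5 or LCR trained rat 4. Over all 31042 probe sets the main fit called 1549 in sedentary rats. Centring gave 2460 and array weights 4183, and there were 333 without LCR sedentary rat 5 and 1936 without LCR trained rat 4. The number called in the averaged line comparison was 1. It was 0 after quantile normalization, 3 after centring (Ndufaf5, Ndufb3 and Ndufa1), 2 with an intensity trend (Ndufaf5 and Ndufb3), and 0 without HCR sedentary rats 4 and 5 together. Leaving out each rat in turn gave 0 to 3. It gave 0 without HCR sedentary rat 4, LCR sedentary rat 6 or LCR trained rats 3 or 4, 2 without LCR sedentary rat 5 or LCR trained rat 2, and 3 without HCR trained rat 3. Over all 31042 probe sets the main fit called 1191 in the averaged comparison. Centring gave 1779 and the intensity trend 1095. Leaving out 1 rat gave 610 without LCR sedentary rat 5, 2575 without LCR trained rat 2 and 1384 without HCR trained rat 3. In the other 5 comparisons 0 were called under every alternative run, and no called complex I difference changed sign. The cause of these shifts was not tested.

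With the replicate number as a block the averaged difference of Ndufaf5 was -0.20 (limma, adjusted p = 0.0369), and the member counts were 1 in that comparison and 0 in the others. The correlation of same-numbered rats ran from -0.231 to 0.339 with a median of 0.035. For rats of other numbers it ran from -0.409 to 0.459 with a median of -0.006. The titles do not say what the number stands for, and these correlations cannot show whether it marks something the rats shared. Over all probe sets the block gave 3000 calls in sedentary rats and 1602 averaged, beside 1549 and 1191 without it. Those totals moved widely: in sedentary rats to 543 after quantile normalization, 2460 after centring, 4183 with array weights, 35 without LCR sedentary rat 6 and 7 without HCR sedentary rats 4 and 5. Averaged over training they were 723, 1779 and 1695 under the first 3 of these and 123 without both rats.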
